A study of Homo sapiens with 4 samples.

Results

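The widened common regions are stretches of open chromatin that were listed in every library of HCT116 cells and whose peaks were wider in both libraries made after tunicamycin than in both libraries made after DMSO. They were chosen by the deposited peak widths themselves: a region had to hold exactly 1 peak in each of the 4 peak lists, and the narrower tunicamycin peak had to exceed the wider DMSO peak by at least 30 bp. This rule took 1338 regions out of 38731 with exactly 1 peak per library, 40447 with at least 1 peak per library and 78788 regions in any library. Because widths chose the members, the widths given here describe them and carry no test. The same holds for every other difference between tunicamycin and DMSO in these regions, since it comes from the same libraries.

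The study profiled wild-type HCT116, a cell line from a human colorectal cancer, with ATAC-seq. In this assay a transposase loaded with adapters inserts them wherever DNA is accessible. Of the libraries, 2 came from cells kept for 6 h in tunicamycin at 0.5 µg/ml, and 2 controls came from cells kept for 6 h in 0.1% DMSO, the solvent. The series calls the samples biological replicates, and each library was made from 50000 cells. The data are 1 list of peaks per library on hg19, so the comparison asks whether sites that stay open under stress of the endoplasmic reticulum (ER) occupy more DNA than in control cells.

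Tunicamycin stops N-glycosylation at its first step, and unfolded glycoproteins then build up in the ER. The cell answers with the unfolded protein response, in which the membrane sensors IRE1, PERK and ATF6 lead to the transcription factors XBP1, ATF4 and cleaved ATF6. Such factors bind in nucleosome-free stretches at promoters and enhancers, and the flanks of these stretches are occupied by positioned nucleosomes. A peak of ATAC-seq is the stretch over which the reads pass the caller's threshold. Its width therefore follows both the extent of the open stretch and the number of reads above the local background, and peak lists alone do not separate these. Genes and DNA sequence at the regions were not analysed here, because the reference tables used were of another genome build, and regions are named by their hg19 position.

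Peak widths over the 38731 single-peak regions were alike in the 4 libraries, with a slight excess in 1 of them. For tunicamycin the medians were 179 bp (replicate 1) and 185 bp (replicate 2), and for DMSO 178 bp and 179 bp. The group means of these medians were 182 ± 4.24 bp after tunicamycin and 178.5 ± 0.707 bp after DMSO (SD, n = 2 each), a difference of 3.5 bp that came mostly from tunicamycin replicate 2 and was 0.5 bp without it. A two-sided exact permutation test over libraries gave p = 0.667, and 2 libraries against 2 cannot give less than 0.333. Tunicamycin replicate 2 also had the longest list, with 62526 peaks beside 56566 to 58467 in the others, and a median summit of 16 reads where the others had 15. Read totals were not used here, so depth was not measured directly. The lowest local background recovered at a summit was 0.143 reads in tunicamycin replicate 2. It was 0.14 reads in tunicamycin replicate 1, and 0.14 and 0.147 reads in DMSO replicates 1 and 2. By this value tunicamycin replicate 2 was not the highest library.

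At 30 bp, regions wider after tunicamycin were more frequent than regions wider after DMSO, by a ratio within the range that other pairings of the 4 libraries gave. The widened regions were 3.45% of the single-peak regions. The same rule with the groups exchanged took 868 narrowed regions, or 2.24%. The ratio of widened to narrowed was 1.54. Put as a share of both kinds, the widened made up 60.7%, and its 95% Wilson interval of 58.6% to 62.7% takes in nothing but the error of counting. With 1 library left out, 1 peak is set against 2 and counts grow, so only the ratio can be read: it was 2.10 without tunicamycin replicate 1, 1.18 without tunicamycin replicate 2, 1.2 without DMSO replicate 1 and 1.28 without DMSO replicate 2.

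The rule was also applied to the 2 pairings that mix the treatments. Both replicates numbered 2 were wider than both numbered 1 in 1082 regions (2.79%), and the reverse held in 655 (1.69%), a ratio of 1.65. Tunicamycin replicate 2 and DMSO replicate 1 were wider than the remaining libraries in 963 regions (2.49%), and the reverse held in 667 (1.72%), a ratio of 1.44. In each of the 3 pairings, the pair that held tunicamycin replicate 2 was wider more often. The pairing by treatment gave the most regions when both directions were added, with 2206 beside 1737 and 1630. With widths divided by each library's median, 1038 regions were widened and 1059 narrowed, so the direction of the balance turned and the ratio was 0.980. All of those 1038 were among the 1338, which the rescaling brings about. No tunicamycin median was below a DMSO median, so it could only take widened regions away. The pairing by treatment then still held more regions in both directions together than the others, 2097 beside 1715 and 1585.

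**Figure D1:**
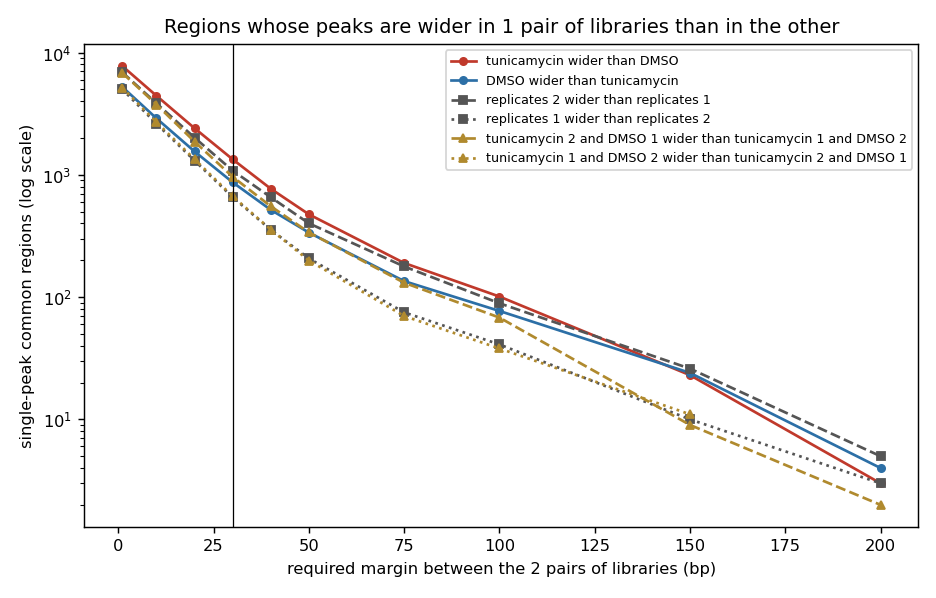
Number of single-peak common regions (vertical axis, log scale) whose peaks were wider in 1 pair of libraries than in the other by at least the margin on the horizontal axis, for both directions of the 3 pairings of the libraries; the vertical line marks 30 bp. Tunicamycin over DMSO lies highest up to 100 bp, where it holds 101 regions, and at 150 bp it holds 23, beside 24 for DMSO over tunicamycin, 26 for replicates 2 over replicates 1 and 9 to 11 for the other 3 directions.

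With both directions added, the pairing by treatment held the most regions up to a margin of 150 bp, while the widened direction alone led up to 100 bp. At 50 bp there were 475 widened and 337 narrowed regions, and at 100 bp 101 and 77. The largest of the other 4 counts, replicates numbered 2 over those numbered 1, was 401 at 50 bp and 89 at 100 bp. The ratio between directions was nevertheless lowest by treatment at these margins. At 50 bp it was 1.41 by treatment, 1.94 by replicate number and 1.7 in the other mixed pairing. At 100 bp the ratios were 1.31, 2.17 and 1.79 in the same order. At 150 bp the counts were 23 widened and 24 narrowed. In the pairings that mix the treatments they were 26 for replicates 2 over replicates 1 and 10 for the reverse, and 9 and 11 for the 2 directions of the other pairing. Both directions together came to 178 regions at 100 bp in the pairing by treatment, beside 130 and 106, to 47 at 150 bp, beside 36 and 20, and to 7 at 200 bp, beside 8 and 2.

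Most members exceeded the margin by little. The gap, the narrower tunicamycin peak minus the wider DMSO peak, had a median of 42 bp and an interquartile range of 35 to 58 bp. It was 30 bp to under 40 bp in 569 members (42.5%), 40 bp to under 60 bp in 457, 60 bp to under 100 bp in 211, 100 bp to under 150 bp in 78 and at least 150 bp in 23. The narrower tunicamycin peak was at least 2 times the wider DMSO peak in 16 members and at least 1.5 times in 128 (9.57%), and its median multiple was 1.25. On the border of the rule, 70 regions had a gap of exactly 30 bp and 92 fell just outside with 29 bp. Of the first kind, the best-ranked by q-value, chr19:8477937-8478240, had peaks of 303 bp and 249 bp after tunicamycin and 219 bp and 175 bp after DMSO. The best-ranked of the second kind, chr8:95132265-95132527, had 258 bp and 263 bp after tunicamycin and 229 bp and 225 bp after DMSO.

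Within the members the replicates lay close together. Their median width was 237.5 bp and 243 bp in tunicamycin replicates 1 and 2, and 162 bp and 163 bp in DMSO replicates 1 and 2. Over all single-peak regions the medians were 179 bp and 185 bp, against 178 bp and 179 bp. The members were thus wider than the typical region after tunicamycin and narrower than it after DMSO, as the rule favours. The replicates of 1 group differed by a median of 16 bp after tunicamycin and 15 bp after DMSO in the members, beside 20 bp and 21 bp over all single-peak regions. The rule again favours this. Tunicamycin replicate 1 was the narrower of the pair in 690 members (51.6%) and replicate 2 in 615 (46.0%), so the gap did not rest on the same tunicamycin library throughout. Over all single-peak regions the figures were 54.9% and 43.0%.

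**Figure D2:**
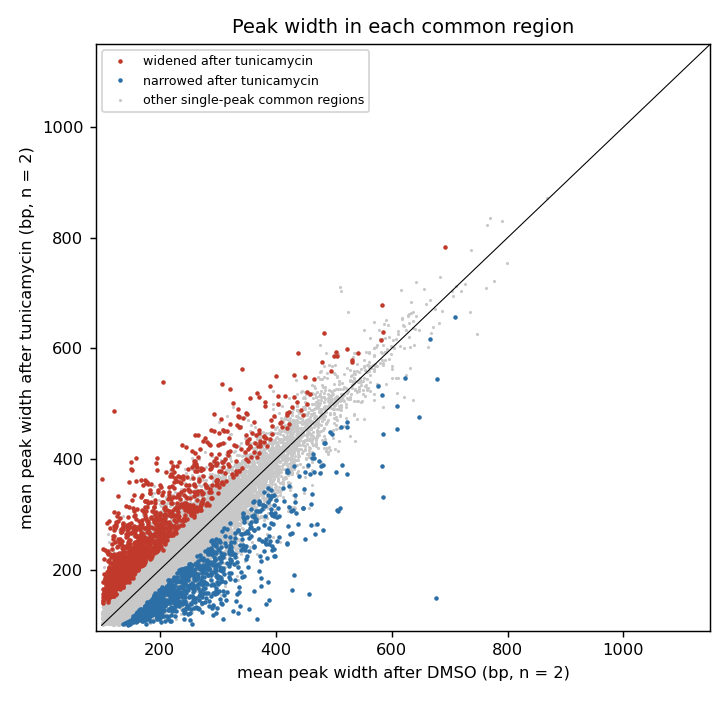
Mean peak width after tunicamycin (vertical axis, bp, n = 2 libraries) against mean peak width after DMSO (horizontal axis, bp, n = 2 libraries) for every single-peak common region, with the 1338 widened regions in red, the 868 narrowed in blue and the line of equal width. Members run along the whole range of widths, and most lie in a band just above the line, where the median multiple of the group means is 1.41.

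The extra width lay on 1 side of the peak far more often than on both. A side was counted as extended where both tunicamycin peaks reached at least 20 bp beyond both DMSO peaks. Exactly 1 side met this in 992 members (74.1%), both sides in 40 (2.99%) and neither in 306 (22.9%). An extension on both sides needs a gap of at least 40 bp, so the 569 members with a smaller gap could not show one. Among the 475 members with a gap of at least 50 bp, exactly 1 side was extended in 82.5% and both in 7.79%. The lower-coordinate side alone was extended in 517 and the higher-coordinate side alone in 475. Where 1 side was extended, the median extension was 38 bp, with an interquartile range of 29 to 55 bp. Among the 101 members with a gap of at least 100 bp, 80 were extended on 1 side and 12 (11.9%) on both. Extension on 1 side was there by a median of 128.5 bp and an interquartile range of 109.5 to 143 bp. The cutoff on the gap largely sets this length, and at a gap of at least 50 bp the median was 59.5 bp.

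Narrowed regions had the same layout with the groups exchanged. Of the 868, 74.0% differed on exactly 1 side, 3.0% on both and 23% on neither. At a gap of at least 50 bp, 83.1% differed on 1 side and 7.72% on both. At a gap of at least 100 bp, 63 of 77 differed on 1 side, by a median of 125 bp, and 9 on both. Steps on 1 side were thus about as frequent in narrowed as in widened regions.

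**Figure D3:**
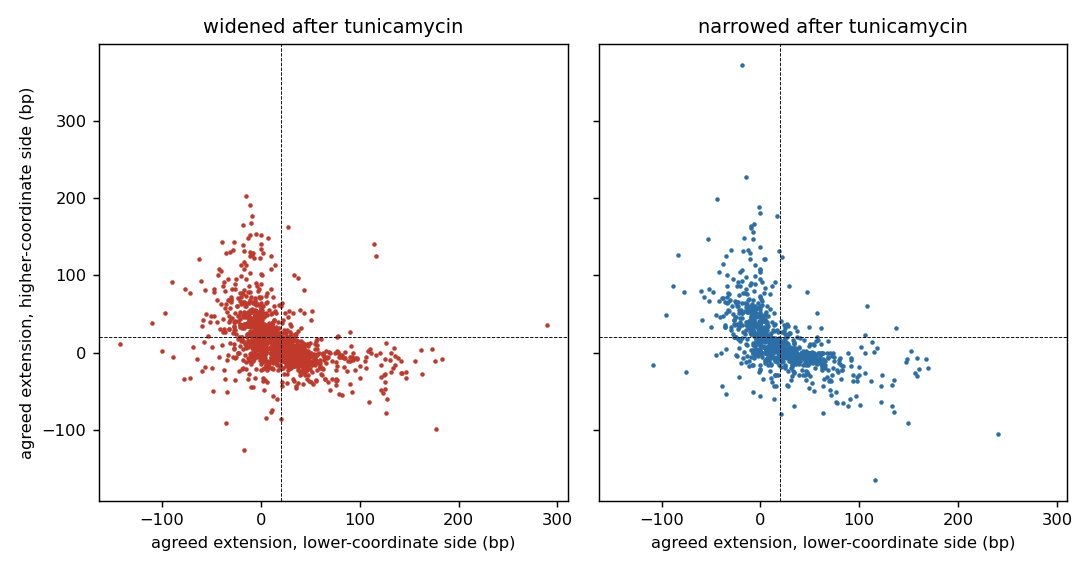
Distance in bp by which both peaks of the wider group reach beyond both peaks of the other group on the lower-coordinate side (horizontal axis) and the higher-coordinate side (vertical axis), for the widened regions (left) and the narrowed regions (right). Dashed lines mark 20 bp. In both panels points follow the axes, with 74.1% and 74.0% beyond the line on exactly 1 side and 2.99% and 3.0% beyond both.

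Summits mostly stayed where they were. The mean summit position differed between the groups by a median of 15.5 bp in the members. The same measure was 15.5 bp in the narrowed and 13.5 bp over all single-peak regions. Single summits of the replicates differed by a median of 20 bp within either group of the members. These measures are unlike, since a mean of several summits varies less than a single summit. A shift of over 50 bp was found in 162 members (12.1%), beside 7.84% of all single-peak regions and 11.1% of the narrowed. Both tunicamycin summits lay outside the stretch covered by the DMSO peaks in 3 members (0.224%), beside 0.0258% of all single-peak regions. With the groups exchanged, the same was seen in 2 narrowed regions (0.23%). In 14 members (1.05%) the DMSO peaks of replicates 1 and 2 shared no base and were joined only through tunicamycin peaks. DMSO peaks lay apart in this way in 0.0697% of all single-peak regions. Tunicamycin peaks lay apart in 9 narrowed regions (1.04%), so the narrowed set showed the mirrored layout about as often. Whether such peaks are separate sites or pieces of 1 site was not tested.

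Summits of the members carried somewhat more reads after tunicamycin, close to what was seen in all regions. The summit pileup was recovered from the authors' fold and −log10 p-value. Its median in the members was 18 and 20 reads in tunicamycin replicates 1 and 2, against 16 and 17 reads in DMSO replicates 1 and 2. Over all single-peak regions it was 19 and 21 reads, against 18 and 19. The median ratio of the mean summit, tunicamycin over DMSO, was 1.13 in the members, 1.04 in the narrowed regions and 1.09 over all. Both tunicamycin summits had more reads than both DMSO summits in 426 members (31.8%), beside 19.1% of narrowed and 25.5% of all regions. Both had fewer in 65 members (4.86%), beside 14.9% of narrowed and 7.26% of all regions.

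Changes in width and changes in summit height were thus loosely linked. Across the 38731 regions, which share libraries and are no replicates, Spearman's rho between the difference in width and the log2 ratio of summit reads was 0.0994. Between mean width and mean percentile rank of the q-value, rho was 0.41 over the same regions. In 325 members (24.3%) the mean summit was lower after tunicamycin although the peak was wider, beside 30.1% of all regions. The local background at the summit was a little higher in the members than over all regions, at a median of 0.591 and 0.650 reads after tunicamycin and 0.557 and 0.578 reads after DMSO, beside 0.533 and 0.580, and 0.526 and 0.541, over all regions. In the narrowed regions it was 0.549 and 0.590 reads after tunicamycin and 0.569 and 0.583 after DMSO, also above all regions in each library. Their part in the widths was not tested.

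Widened regions were more frequent among wide peaks and among weak peaks, and so were narrowed regions. When the single-peak regions were divided into 4 classes of equal size by their mean width over all libraries, 1.54% of the narrowest class were widened, then 3.5%, 3.79% and 4.99% of the widest. The narrowed share went the same way, with 0.713%, 1.81%, 2.82% and 3.62%. The margin is the same number of bp in every class, and the classes come from the same widths as the rule. No listed peak was under 100 bp, so regions at the low end of the narrowest class could not meet the margin in either direction. Part of the trend with width is thus set by the rule. By classes of the mean percentile rank of the q-value, which runs from weak to strong peaks within a list, 4.61% of the lowest-ranked class were widened, then 3.66%, 3.04% and 2.52% of the highest. The narrowed shares were 3.18%, 2.26%, 2.02% and 1.5%. The members' median mean rank was 55.4, beside 53.7 for the narrowed and 62.5 for all single-peak regions.

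**Figure D4:**
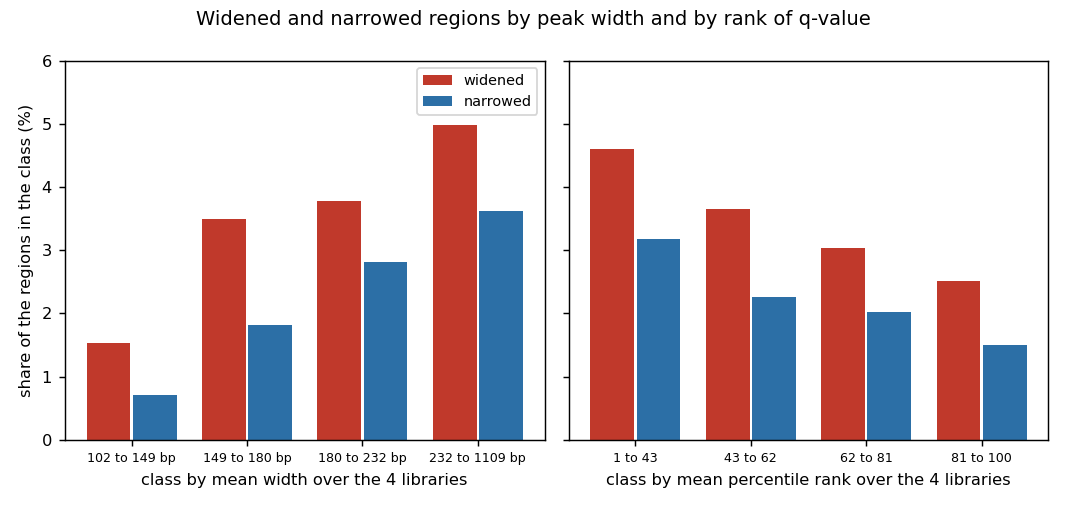
Share of regions that were widened (red) and narrowed (blue), in percent of the regions in each of 4 classes of equal size, with the 38731 single-peak common regions divided by mean peak width (left, in bp) and by mean percentile rank of the q-value (right). Both shares grow with width, to 4.99% and 3.62%, and shrink with rank, to 2.52% and 1.5%.

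The list's lower limit on width touches some members. No deposited peak was under 100 bp, and 169 members (12.6%) had a DMSO peak of 110 bp or less, beside 7.65% of all single-peak regions. Of the narrowed regions, 102 (11.8%) had a tunicamycin peak that short.

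The largest gap belonged to a strong site that was open to a similar degree in both DMSO libraries. At chr17:61594087-61594629 the peaks were 543 bp and 536 bp wide in tunicamycin replicates 1 and 2, against 210 bp and 202 bp in DMSO replicates 1 and 2, a gap of 326 bp. The mean widths were 539.5 ± 4.95 bp after tunicamycin and 206 ± 5.66 bp after DMSO (SD, n = 2 each). Both tunicamycin peaks reached 289 bp further on the lower-coordinate side and 36 bp further on the other. The summit moved by 11 bp only and carried 45 and 67 reads after tunicamycin, against 29 and 35 after DMSO. It ranked at 94.3 on average.

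The 2 regions with the largest multiples were weak sites with narrow peaks in control cells. At chr11:2008367-2008747 the tunicamycin peaks were 347 bp and 381 bp wide, and both DMSO peaks were listed at the minimum of 100 bp. The multiple was 3.47, the highest among members, and the extension lay on both sides, with 117 bp and 125 bp. Summits there had 20 and 15 reads after tunicamycin, against 7 and 13 after DMSO. At chr2:191471699-191472246 the peaks were 425 bp and 548 bp after tunicamycin, against 130 bp and 111 bp after DMSO, with summits of 13 and 12 reads against 6 and 11. The mean rank of this site was 20.2.

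Some of the largest gaps came with summits of similar or lower height. At chr1:225662691-225662990 the peaks were 288 bp and 290 bp after tunicamycin, against 111 bp and 114 bp after DMSO, while summits had 28 and 29 reads against 31 and 23. The extension was 176 bp and lay on the lower-coordinate side. At chr1:202779795-202780255 the peaks were 335 bp and 456 bp after tunicamycin, against 147 bp and 155 bp after DMSO, with summits of 26 and 30 reads against 28 and 35. In neither region did all tunicamycin summits stand above all DMSO summits. At chr8:123651166-123651580 the widths were 388 bp and 415 bp, against 184 bp and 208 bp, on summits that were slightly taller after tunicamycin, with 37 and 36 reads against 35 and 31. The extension there was 191 bp on the higher-coordinate side.

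At some of the 20 regions with the largest gap, the summit lay at different points of the peak in different libraries. This held between replicates of 1 group too, as in the regions that follow. At chr9:99180651-99181244 the peaks were 547 bp and 579 bp after tunicamycin, against 350 bp and 335 bp after DMSO. Its summits had 36 and 43 reads after tunicamycin and 37 and 39 after DMSO, so their heights overlapped, while their mean position shifted by 103.5 bp. At chr7:106684863-106685450 the peaks were 487 bp and 583 bp, against 300 bp and 314 bp. The extension there was 134 bp on the higher-coordinate side, and summits had 24 and 19 reads, against 12 and 16.

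Strong sites formed a part of the 20 regions with the largest gap. At chr17:49304221-49304585 the peaks were 361 bp and 347 bp after tunicamycin, against 175 bp and 167 bp after DMSO, with an extension of 162 bp on the lower-coordinate side and summits of 47 and 43 reads against 37 and 25. At chr11:76155654-76156099 they were 406 bp and 439 bp, against 247 bp and 245 bp, with summits of 48 and 71 reads against 53 and 56. At chr19:12662298-12662731 they were 424 bp and 427 bp, against 266 bp and 211 bp, with summits of 51 and 56 reads against 49 and 54. In the last 2 regions the summits of the groups overlapped in height, and the extra stretch was 152 bp and 168 bp on the higher-coordinate side.

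Of the 20, 2 lay on chromosome 6 about 1 Mb apart. At chr6:26104154-26104545 the peaks were 375 bp and 351 bp after tunicamycin, against 160 bp and 177 bp after DMSO, with 156 bp of extension on the lower-coordinate side. At chr6:27156253-27156572 they were 304 bp and 306 bp, against 102 bp and 141 bp. Here the DMSO peaks lay at opposite ends of the stretch and shared no base, so each DMSO library listed a different end of what both tunicamycin libraries listed whole.

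The other 7 of the 20 had gaps of 157 to 190 bp. They were chr22:38732127-38732496, chr17:7218373-7218805, chr20:861993-862340, chr10:72482634-72483040, chr7:27824048-27824346, chr19:9785495-9785872 and chr2:28113379-28113809. Across all 20, 15 were extended on 1 side and 4 on both. Both tunicamycin summits stood above both DMSO summits in 10 of them and below in 0. Their mean rank was above 90 in 5 and under 50 in 10, and they lay on 12 chromosomes.

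**Figure D5:**
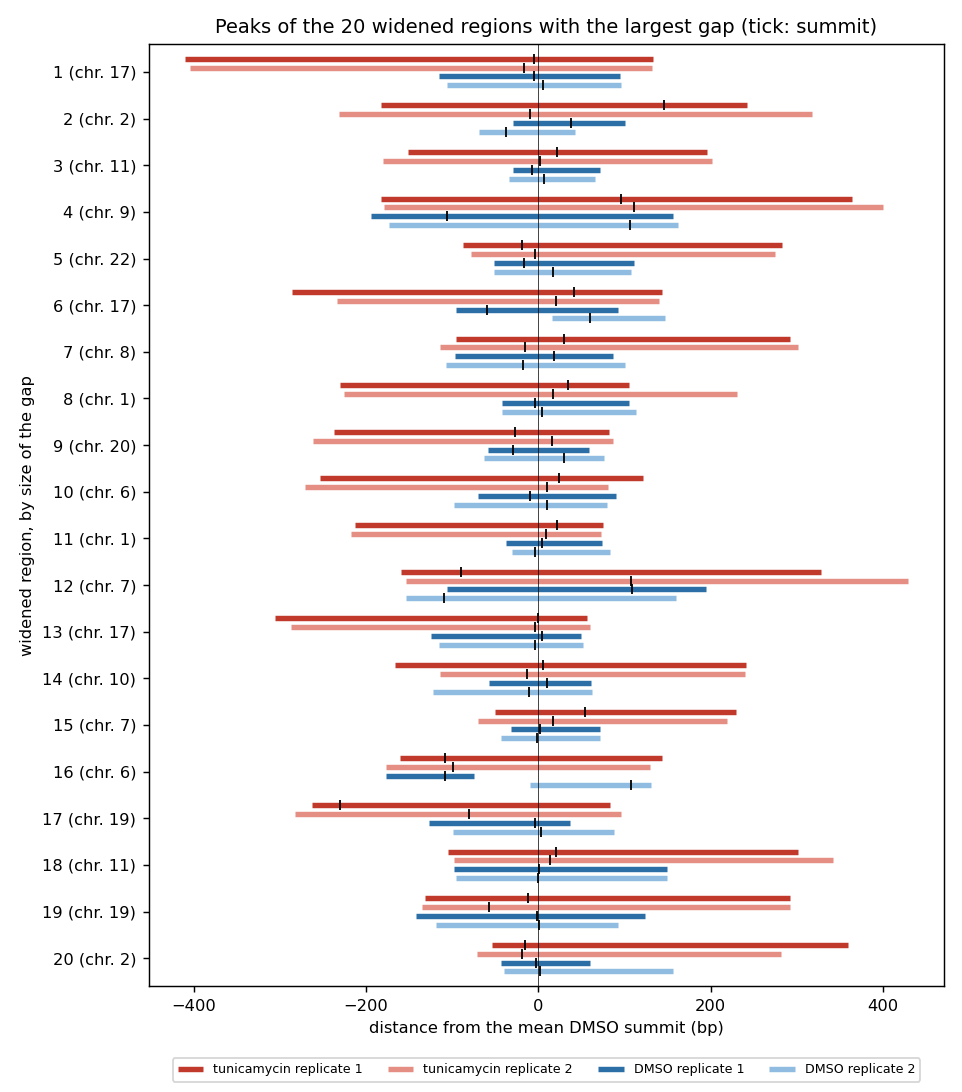
Peaks of the 20 widened regions with the largest gap, drawn to scale as bars along the distance from the mean DMSO summit (horizontal axis, bp), with tunicamycin replicates 1 and 2 in red shades above DMSO replicates 1 and 2 in blue shades and a black tick at each summit. Regions run down the page from the largest gap (326 bp) to the smallest shown (157 bp), and in 15 of 20 the tunicamycin peaks extend past the DMSO peaks on 1 side.

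The 5 best-ranked members had gaps of 31 to 51 bp and multiples of 1.09 to 1.15. The best-ranked member, chr17:79818465-79819068, had peaks of 518 bp and 571 bp after tunicamycin, against 466 bp and 467 bp after DMSO, with summits of 104 and 114 reads against 90 and 121. The next, chr16:87421969-87422334, had 354 bp and 321 bp, against 250 bp and 278 bp, with 107 and 101 reads against 103 and 104. The remaining 3 of the 5 best-ranked, chr18:12039018-12039353, chr2:73460300-73460754 and chr1:201924303-201924685, each had a gap of 31 bp. The 5 lowest-ranked members had gaps of 33 to 58 bp and multiples of 1.2 to 1.53, beside medians of 42 bp and 1.25 over all members. The lowest, chr16:23313508-23313728, had 166 bp and 179 bp after tunicamycin, against 124 bp and 105 bp after DMSO, on summits of 7 and 5 reads against 5 and 4.

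Members were spread over all 23 listed chromosomes at similar shares of the open sites there. The share widened ran from 2.77% of 685 single-peak regions on chromosome 13 to 4.24% of 708 on chromosome 18. Every chromosome's Wilson 95% interval, which covers counting error only, held the share over all regions. Among single-peak regions next to a member and within 10 kb of it, 32 of 778 (4.11%) were members too and 19 (2.44%) were narrowed. Next to a narrowed region, 19 of 484 (3.93%) were widened. Over all single-peak regions 3.45% were widened and 2.24% narrowed, so the shares next to a member lay near those of any region. Widened regions lay a little closer to other open sites, at a median of 3092.5 bp to the nearest region of any library. The median was 4087 bp over all single-peak regions and 3894 bp for the narrowed.

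The 1 Mb window with the most members was on chromosome 6 from 27000001 to 28000000, picked after its values were seen. It held 8 widened and 0 narrowed regions out of 71, or 11.3% widened. Peaks of the 8 members ran from 162 bp to 582 bp after tunicamycin, against 102 bp to 501 bp after DMSO. In 7 of these 8 members the mean summit was lower after tunicamycin, and the same was seen in 64.8% of all 71 regions of the window, beside 30.1% genome-wide. At chr6:27144370-27144603, for example, the peaks were 214 bp and 226 bp wide after tunicamycin, against 148 bp and 174 bp after DMSO, on summits of 8 and 15 reads against 20 and 19. At chr6:27599105-27599340 they were 217 bp and 162 bp, against 112 bp and 102 bp, on summits of 11 and 14 reads against 17 and 18. Over the 71 regions, the mean width was greater after tunicamycin in 57.7%, beside 55.0% genome-wide. The next in number of members was on chromosome 22 from 39000001 to 40000000, with 7 of 51 regions widened and 2 narrowed. The windows with 5 members were on chromosome 20 from 34000001 (5 of 35, 1 narrowed), on chromosome 16 from 56000001 (5 of 36, 0 narrowed), and on chromosome 19 from 19000001 (5 of 44, 0 narrowed) and from 49000001 (5 of 93, 3 narrowed).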

How the data were processed

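ATAC-seq peak lists of 4 HCT116 libraries were used. Per the submitters' processing notes, the tools were MACS2 2.2.7.1, Bowtie2 2.3.5.1, deepTools, Picard 2.18.23, SAMtools and Trim Galore, and the build was hg19. How peaks were called, and whether reads were shifted for the transposase, is not given in the sources used. The authors deposited for each peak its position, a score that is 10 times the −log10 q-value, a fold over local background (a ratio within the library), −log10 p and q-values, and a summit. These are the authors' own values.

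Peaks that shared 1 bp were merged, widths were taken as end minus start, and the rule was applied in Python 3.11.15 (pandas 2.3.3, numpy 2.4.6, scipy 1.17.1), after a test on simulated lists. Coordinates are given from 1. Summit pileups were recovered from fold and −log10 p as whole numbers that matched within 0.001 for 100% of peaks; the smallest was 3 reads, and what was piled up is not known. Regions and lists were chosen with earlier results of these data known. Named regions were the 20 with the largest gap, the 5 with the largest ratio, the 5 highest and 5 lowest in rank, and up to 3 on each side of the margin. Gene lists, markers and motifs could not be used without an hg19 annotation or genome. The main rule did not pair libraries by replicate number, since the labels name nothing that libraries of the same number share. Differences in log2 width between replicates correlated at 0.0106 between the groups across regions. That value cannot show whether libraries of the same number were handled together.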

Additional observations from a re-analysis of the deposited data

How the results depend on the processing

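The count of widened regions depended on the margin: 2403 widened and 1552 narrowed at 20 bp, 475 and 337 at 50 bp (ratio 1.41), and 101 and 77 at 100 bp (ratio 1.31). With peaks of −log10 q of at least 10 only, 888 were widened. With widths divided by the library median the ratio turned to 0.980; this setting removes the difference in median width between libraries by construction. Pairing libraries by number (replicate block) asks less of each region and gave 2145 widened and 1408 narrowed. With 1 library left out the rule compares 1 peak with 2, so counts grow by construction: 3852 to 5006 widened and 2389 to 3371 narrowed, with ratios from 1.18 (without tunicamycin replicate 2) to 2.10 (without tunicamycin replicate 1). The relative margin of 1.2 times, −log10 q of at least 5, lists of equal length, reciprocal overlap, merging up to 250 bp and, chosen after the data had been examined, peaks of at least 120 bp kept the number widened between 1051 and 1309 and the ratio between 1.46 and 1.60. The difference in median width stayed positive, from 0.5 bp to 6.5 bp, in the settings it was computed for. These were −log10 q of at least 10, lists of equal length, merging up to 250 bp and 1 library left out. Summits of 15 or 16 reads at the median limit how exactly an edge is placed.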

Other observations

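The rule leaves out 1716 common regions in which some library listed several peaks. Summed over the peaks of a region, the median peak length there was 363 bp and 388 bp in tunicamycin replicates 1 and 2, against 370 bp and 376 bp in DMSO replicates 1 and 2. The tunicamycin sums of both replicates exceeded both DMSO sums by at least 30 bp in 225 of these regions (13.1%), and the reverse held in 163 (9.5%). Several peaks were listed in 45.2% and 39.9% of these regions after tunicamycin, against 43.4% and 42.1% after DMSO, so the groups overlapped.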
